A study of Homo sapiens with 14 samples.

Results

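IMR90 cells treated with inflachromene (ICM) were set against IMR90 cells passaged into replicative senescence, both from the isolate named I79, to ask what the drug-treated and the passaged cells shared at the mRNA level and where they differed. The members were the 4 samples titled I79 ICM and I79 old, of 14 samples in the series. They were chosen by their titles, and no measured value entered the choice. The deposited tables of these samples shared 25357 genes, and 13532 of them passed a filter on low values (a mean of at least 1 CPM over both groups).

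IMR90 is an established line of human fetal lung fibroblasts, diploid cells that stop dividing after a limited number of passages. ICM is a small molecule that binds HMGB1 and HMGB2, a pair of nuclear DNA-bending proteins. The labels gave I79 ICM cells as low passage and treated with ICM, and I79 old cells as high passage and senescent. The other groups were used as background: I79 young (low passage, proliferating), I10 old and I10 young (a second isolate), WT and HMGB2 KD (IMR90 of wild-type genotype or with HMGB2 knocked down). Each of the 7 groups held 2 samples, and each comes from 1 line. The labels did not give dose or days of treatment for the ICM samples, whether replicates were separate cultures, or the isolate of WT and HMGB2 KD.

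Senescent fibroblasts leave the cell cycle for good, with CDK inhibitors such as p21 holding the RB protein in its growth-blocking form. They keep an active secretory programme of cytokines, proteases and matrix factors, lose nuclear lamin B1, and rebuild their chromatin with the help of high mobility group proteins. Electrophilic and oxidant stress act on another axis, in which the transcription factor NRF2 escapes its inhibitor KEAP1 and turns on genes for glutathione, thioredoxin, NADPH and iron storage. Sterol shortage acts through SREBP2, which turns on the genes of cholesterol synthesis and uptake.

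The tables were counted in 3 different ways, and the old samples stood in 1 column for both replicates, so the ratios below are descriptions with no test and no p-value. The ICM libraries held 13290131 and 10971132 reads, and the I79 old column 19832964 estimated counts. CPM, the count scaled to the library total, was taken over the reads on the shared genes. A log2 ratio is the mean log2 CPM of both ICM libraries (prior count 2) minus that of I79 old, and its SD (n = 2) is over the ICM libraries only. A gene was called past the fold where both ICM libraries stood over 1 (log2) from I79 old on the same side. Fold values are given with a 95% interval (exact Clopper-Pearson) that covers counting error only. The ICM libraries differed from each other by a median of 0.10 (log2), and 96.7% of genes lay within 0.6. Their counts differed by more than sampling noise (chi-square of 2.30 per degree of freedom), so they were taken as separate libraries.

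Across all genes, 2864 of 13532 (21.2%) stood higher in ICM than in I79 old past the fold and 2022 (14.9%) lower, while 8646 (63.9%) did neither. The median log2 ratio was 0.11. These shares have to be read against what the tables gave without ICM. WT, counted in yet another way, stood higher than I79 old in 13.3% of genes and lower in 14.6%, and HMGB2 KD in 10.9% and 14.8%. I10 old, counted exactly as I79 old but from the other isolate, stood higher in 1.81% and lower in 3.43%. I79 young, also counted as I79 old, stood higher in 12% and lower in 9.24%. Against both senescent isolates at once, 18.5% of genes were higher in ICM and 10.6% lower. The ratio also moved with transcript length. Its median was 0.60 over the genes with transcripts of up to 1780 bases and -0.29 over those with 4374 bases or more, with a Spearman coefficient of -0.29 across 13532 genes, which are not independent replicates. Counting method, library preparation, passage and treatment cannot be told apart here for any single gene.

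**Figure D1:**
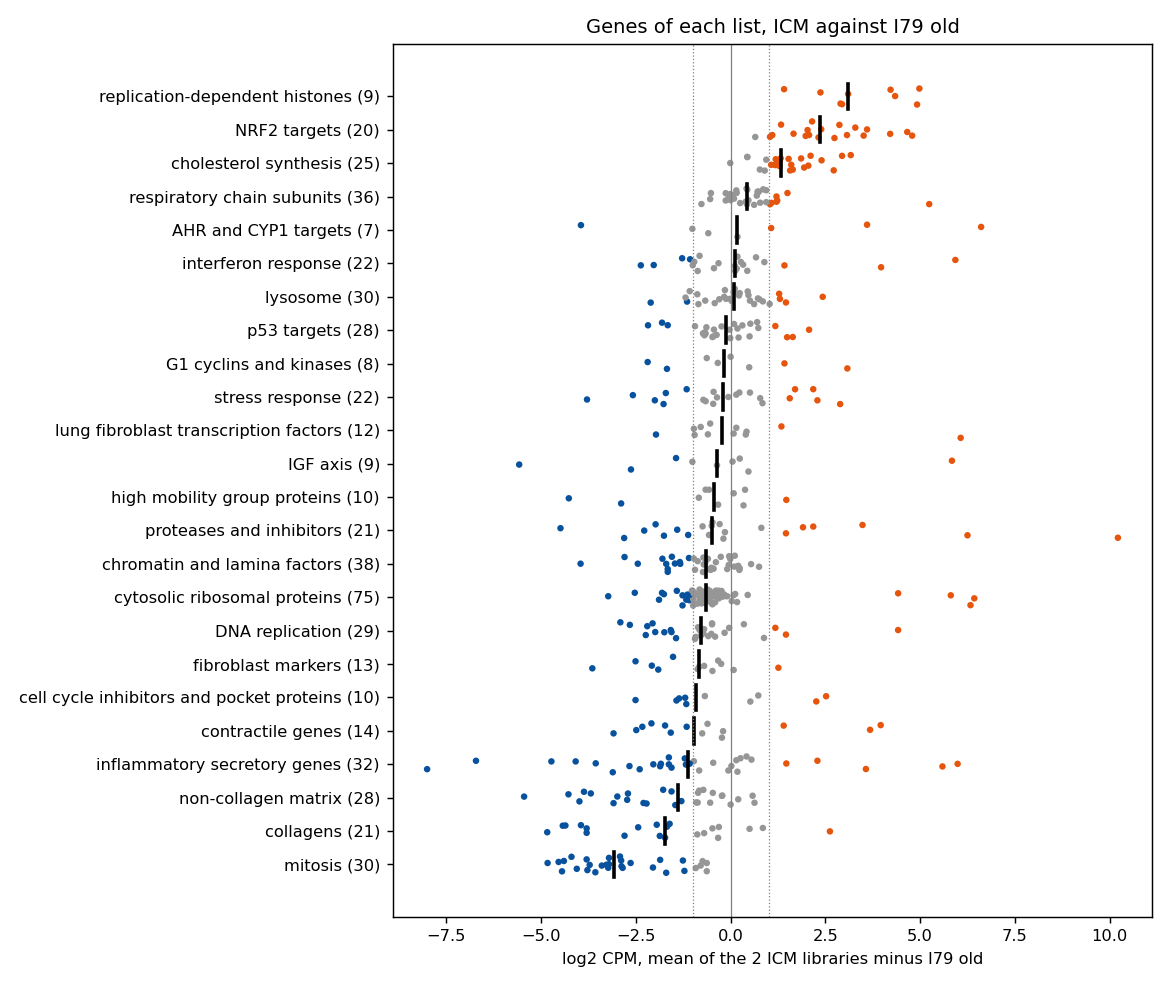
Log2 CPM ratio of ICM to I79 old (x axis) for each gene (points) of 24 gene lists with at least 7 kept genes (y axis, number of kept genes in brackets), the black bars marking list medians, orange and blue marking genes past the fold (higher and lower). Past the fold lie 19 of 20 NRF2 targets and 19 of 25 cholesterol synthesis genes on the right and 25 of 30 mitosis genes on the left, and p53 targets have a median of -0.13.

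The arrest genes came first. CDKN1A (p21, the CDK inhibitor that p53 turns on; chromosome 6 from 36644237 to 36655114 of GRCh37) stood at 3269 and 3481 CPM in the ICM libraries, 2354 in I79 old and 1524 in I10 old, against 398 in I79 young. The ICM libraries and both old columns were thus all above I79 young, but so was WT, at 1223 and 1259 CPM. The ICM to I79 old ratio was 0.52 (SD 0.06, n = 2), short of the fold. Without reads of untranslated regions, which could be left out of the ICM tables but not of the old ones, the ratio was -0.91, and 60% and 61.9% of the ICM reads of CDKN1A lay in its 3′ untranslated region. Here and below, leaving these reads out of ICM alone lowers the ratio of any gene rich in them. Of 28 p53 targets, 4 were higher, 3 lower and 21 neither, where 21.2% of all genes were higher and 14.9% lower. The list median was -0.13 beside 0.11 over all genes. Against I10 old 8 were higher and 1 lower (median 0.57), and without reads of untranslated regions 3 were higher and 8 lower (median -0.50). GDF15, a stress cytokine of this list, stood at 206.5 and 267 CPM in ICM, 304 in I79 old, 70.0 in I10 old and 14.2 in I79 young. TIGAR, a regulator of glycolysis, was higher in ICM (85.2 and 73.2 CPM against 18.8), and DDB2, a DNA damage sensor, was lower (14.9 and 14.6 CPM against 67.3).

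The INK4 inhibitors were another matter. CDKN2A (p16 and ARF) stood at 39.3 and 44.4 CPM in ICM, 8.59 in I79 old and 10.5 in I79 young, a ratio of 2.26 (SD 0.12, n = 2) and 4.84-fold (4.09 to 5.76). CDKN2B (p15), its neighbour on chromosome 9, stood at 39.3 and 35.5 CPM in ICM against 6.41 in I79 old and 8.78 in I79 young. Both were higher in ICM than in either old column. CDKN1C (p57), in contrast, was at 2.22 and 2.96 CPM in ICM and at 15.3 in I79 old. Over the list of cell cycle inhibitors and pocket proteins 2 of 10 were higher and 5 lower, with a median of -0.92, or -0.08 over the 6 genes with a mean of at least 10 CPM and -0.10 with TPM times length as the I79 old value. WT, HMGB2 KD and I79 young each also had 2 of the 10 higher than I79 old, and 1 lower. Among G1 cyclins and kinases, CCND1 (cyclin D1) stood at 1583 and 1567 CPM in ICM and 1118 in I79 old, against 233 in I79 young. CCND2, which was at 1.15 CPM in I79 young, reached 67.2 in I79 old and 14.9 and 14.4 in ICM, a ratio of -2.19 (SD 0.04, n = 2). CCND3 was higher in ICM, with 352 and 311 CPM against 39.1. Of the 8 genes of that list 2 were higher and 2 lower (median -0.17), and in WT 1 was higher than in I79 old and 2 lower.

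Most high mobility group genes did not pass the fold. HMGA2, an AT-hook protein of senescent heterochromatin (chromosome 12 from 66218240 to 66360071 of GRCh37), stood at 24.0 and 20.4 CPM in the ICM libraries, 430 in I79 old, 397 in I10 old, 73.8 in I79 young and 110 in I10 young. Both ICM libraries were below the old, young and WT columns, and I79 old was 19.2-fold above ICM (17.6 to 21), a log2 ratio of -4.27 (SD 0.17, n = 2). In WT the gene stood at 235 and 210 CPM. The ICM reads of HMGA2 were few: 70.8 and 40.8 in its coding region and 195 and 126 in its 3′ untranslated region. In I79 old 97.1% of its counts belonged to 1 transcript of 4473 bases. Without reads of untranslated regions the ratio was -5.90. HMGA1, its relative, was at 365 CPM in both ICM libraries, 652 in I79 old and 844 in I10 old, a ratio of -0.84 that was short of the fold, and -2.35 without reads of untranslated regions. Leaving out such reads lowers the ratios of HMGA2 and HMGA1 by itself. The 3′ untranslated region held 62.1% and 57.2% of the ICM reads of HMGA2, and 61.2% and 61.4% of those of HMGA1.

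HMGB1 and HMGB2, which ICM binds, stood below I79 young in the ICM libraries and in both old columns. HMGB1 stood at 116 and 114 CPM in ICM, 171 in I79 old and 181 in I10 old, against 547 in I79 young. HMGB2 stood at 4.36 and 5.83 CPM in ICM, 38.3 in I79 old and 43.9 in I10 old, against 137 in I79 young. The ICM to I79 old ratio was -0.57 (SD 0.02, n = 2) for HMGB1 and -2.89 (SD 0.29, n = 2) for HMGB2, and only the latter was past the fold. HMGN3, a nucleosome binder, was the 1 gene of the list past the fold upwards (41 and 46.1 CPM against 15.7). The whole list had 1 higher and 2 lower of 10, where 21.2% and 14.9% of all genes were higher and lower, and a median of -0.45. Without reads of untranslated regions 6 were lower and the median was -1.32, a shift that leaving them out of ICM alone can give.

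**Figure D2:**
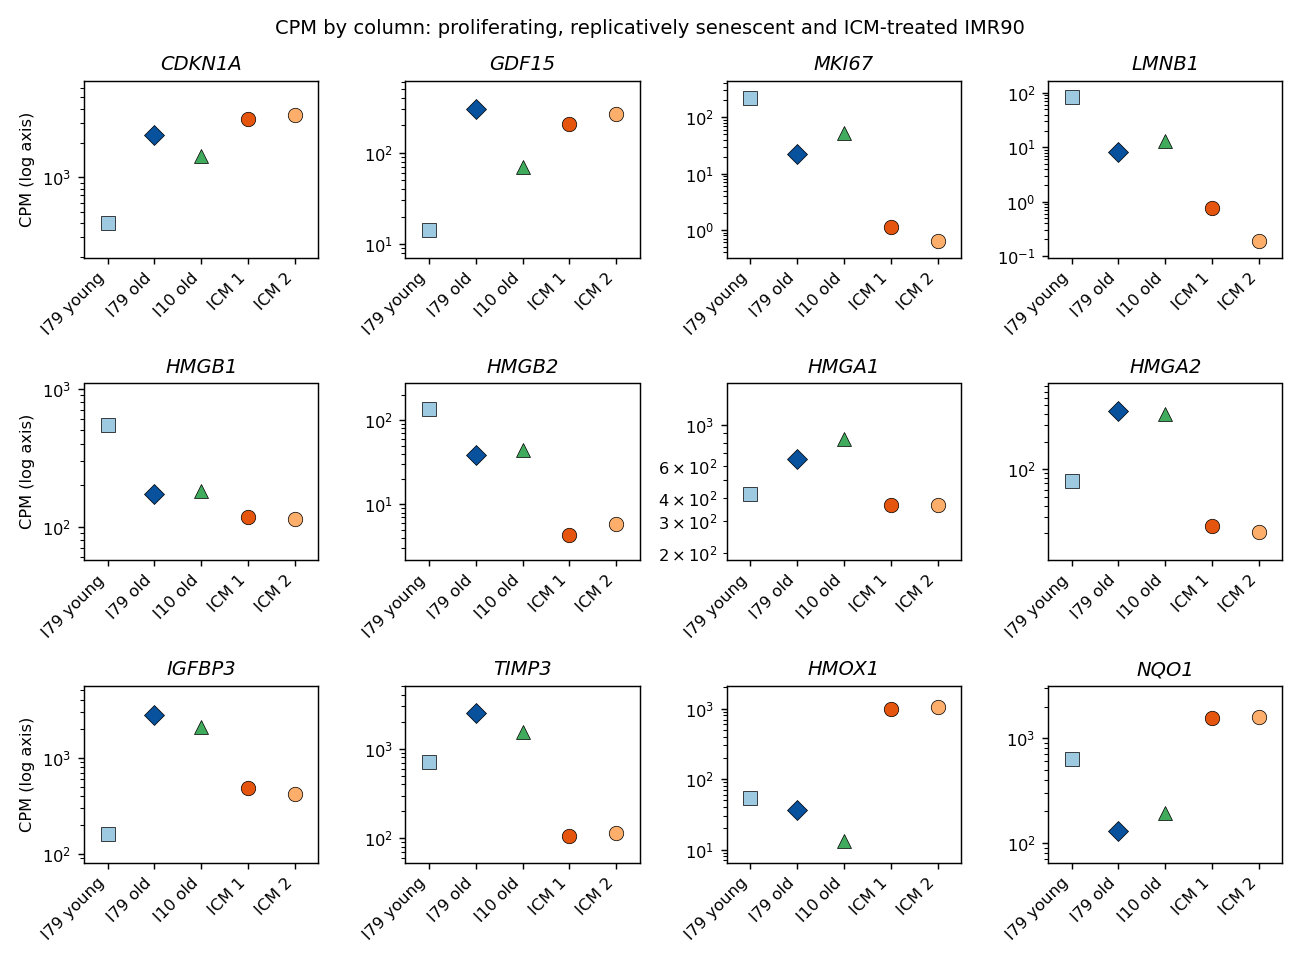
CPM (y axis, log scale, a separate range in each panel) of 12 genes in I79 young, I79 old, I10 old and both ICM libraries (x axis), 1 point per column and no error bars, since the old and young columns hold 1 value each. CDKN1A and GDF15 lie above I79 young in the old and ICM columns alike, while HMGA2 is 430 CPM in I79 old and 24.0 and 20.4 in the ICM libraries.

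LMNB1 (lamin B1) was at 0.764 and 0.185 CPM in ICM (10 and 2 reads), 8.32 in I79 old, 13.3 in I10 old and 83.1 in I79 young. Below I79 young in both, it was 16.5-fold lower in ICM than in I79 old (9.20 to 32.7). Over 38 chromatin and lamina factors none was higher and 12 were lower, with a median of -0.64. HDAC9, at 0.576 CPM in I79 young, stood at 19.8 in I79 old and at 3.67 and 3.33 in ICM. RAD21, a cohesin subunit, stood at 64.4 and 56.5 CPM in ICM against 177 in both old columns. CTCF, the insulator protein, was at 17.8 and 16.7 CPM in ICM and 27.6 in I79 old, a ratio of -0.67 that did not pass the fold.

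Genes of mitosis were lower in ICM than in cells that were already senescent. Of 30 genes 25 were lower and none higher, all 25 of them also lower than in I10 old, and the list median was -3.07 beside 0.11 over all genes. MKI67, the proliferation marker Ki-67, was at 1.15 and 0.648 CPM in ICM, 21.9 in I79 old, 51.3 in I10 old and 218 in I79 young. TOP2A, the topoisomerase of dividing cells, was at 3.13 and 3.06 CPM in ICM against 53.8 in I79 old, 17.4-fold lower (13.7 to 22.3). KIF20A, a kinesin of cytokinesis, was at 0.306 and 0.370 CPM against 11, which is 4 reads in each ICM library. CCNB1 (cyclin B1) was an exception, at 12.5 and 11.4 CPM in ICM and 18.5 in I79 old, with a ratio of -0.63. CCNA2, also short of the fold, had 131 counts in I79 old and none in I79 young, I10 old and I10 young. The WT median for this list against I79 old was 0.67, and the I79 young median was 2.75. In bulk RNA, fewer cycling cells and less mRNA per cell cannot be told apart.

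As these genes were lower together, their promoters were read for the cell cycle genes homology region, the element TTTGAA through which the DREAM and MuvB complexes are known to hold mitotic genes. Of the 30 genes, 24 had an entry in the RefSeq promoter table (GRCh38.p14, from 250 bases before to 50 after the start). In 18 of these 24 (75.0%) the window held TTTGAA on either strand, against 15.4% of all 27305 promoters. The 2 genes with the lowest ratios among those with a match are printed here, 5′ to 3′ on the gene's strand, with each match in capitals. The DLGAP5 window is chr14:55191691-55191750 and the MKI67 window is chr10:128126438-128126497, both of GRCh38.p14 on the minus strand. A match is a description of letters and not a binding site.
DLGAP5: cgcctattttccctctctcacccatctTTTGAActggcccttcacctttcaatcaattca
MKI67: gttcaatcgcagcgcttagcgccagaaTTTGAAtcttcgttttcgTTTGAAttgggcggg

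DNA replication genes were lower to a smaller degree. Of 29 kept genes 10 were lower and 3 higher, with a median of -0.78. RRM2, a subunit of ribonucleotide reductase, stood at 3.67 and 3.70 CPM in ICM against 24.0 in I79 old. PCNA, the sliding clamp, was nearly level, at 53.8 and 54.4 CPM in ICM and 55.7 in I79 old. MCM4, a helicase subunit, was higher in ICM (21.6 and 19.2 CPM), but it was at 0.815 CPM in I79 old and at most 9.70 in the 4 old and young columns, against 39.2 and 37.6 in WT.

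Of 32 kept inflammatory secretory genes 17 were lower, 5 higher and 10 neither, and the median was -1.13. Against I10 old 11 were lower and 8 higher of 29 (median -0.44). Against both old isolates 10 of them were lower. C3, the central complement protein, was at 0.153 and 0.185 CPM in ICM (2 reads in each library), 79.7 in I79 old and 3.67 in I10 old. TNFAIP3 (A20) and ICAM1, both targets of NF-κB, were at 2.37 and 1.57 CPM and at 5.50 and 8.34 CPM in ICM, against 55.0 and 81.2 in I79 old. SOD2, another, stood at 299 and 304 CPM against 1082. IL6 and CXCL8 did not pass the fold. IL6 stood at 9.02 and 13.9 CPM in ICM, 9.35 in I79 old and 3.81 in I79 young. CXCL8 (interleukin-8) stood at 17.3 and 18.2 CPM in ICM, 18.5 in I79 old, 2.25 in I10 old and 6.12 in I79 young. For both the 95% interval of the ICM to I79 old fold held 1 (0.988 to 1.46 for IL6 and 0.827 to 1.11 for CXCL8). That interval covers counting error only, so it does not show equal levels. Without reads of untranslated regions CXCL8 stood at -1.15 and IL6 at 0.61. TNFAIP6, a hyaluronan-binding protein, was higher in ICM, at 33.7 and 47.1 CPM against 0.489 in I79 old, and at 23.4 in I79 young. In WT this list had a median of 2.00 over I79 old, with CXCL8 at 1813 and 768 CPM.

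Proteases and their inhibitors split evenly, with 6 higher and 7 lower of 21 and a median of -0.48. The secreted collagenase MMP1 stood at 200 and 218 CPM in ICM, 18.6 in I79 old, 49.1 in I10 old and 29.6 in I79 young, 11.2-fold higher than in I79 old (10 to 12.5). MMP3 (stromelysin-1) stood at 166 and 174 CPM in ICM with no count in I79 old, which makes it at least 1039-fold higher against the limit of 3 counts that a count of 0 allows. I10 old had 3.15 CPM of it, and WT 318 and 129. The MMP inhibitor TIMP3 went the other way, with 107 and 115.5 CPM in ICM, 2501 in I79 old, 1517 in I10 old and 704 in I79 young, a ratio of -4.49 (SD 0.07, n = 2). In WT, TIMP3 stood at 181 and 182 CPM.

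In the IGF axis 1 gene was higher and 3 were lower of 9, with a median of -0.36. IGFBP3, an IGF carrier, was at 478 and 422 CPM in ICM, 2780 in I79 old and 2068 in I10 old, against 162 in I79 young. IGFBP7 showed the same order, with 283 and 256 CPM in ICM, 731 in I79 old and 137 in I79 young. IGF2, the fetal growth factor, was at 6.50 and 7.32 CPM in ICM, 336 in I79 old, 120 in I10 old and 22.4 in I79 young, 48.9-fold lower in ICM than in I79 old (41.9 to 57.5), and at 0.522 and 0.818 in WT. IGF1R, the receptor, was at 67.2 and 67.0 CPM in ICM and 1.03 in I79 old, but all 4 old and young columns lay at or below 7.56 CPM while WT was at 83.9 and 106.5.

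Collagens were lower in ICM as a group. Of 21 kept genes 13 were lower, all of them also below I10 old, and 1 was higher, with a median of -1.73. Collagen VI, the microfibrillar collagen, stood out. COL6A3 (chromosome 2 from 238232646 to 238322971 of GRCh37) was at 409 and 470 CPM in ICM, 8979 in I79 old, 7977 in I10 old and 8913 in I79 young, 20.6-fold lower in ICM than in I79 old (20.2 to 21). COL6A1 was at 722 and 803 CPM against 4143, and COL6A2 at 531 and 597 against 3925. The chains of collagen I differed less. COL1A1 was at 3081 and 2965.5 CPM in ICM, 4894 in I79 old and 12891 in I79 young, and COL1A2 at 4186 and 4261, 5294 and 5708. COL18A1, the source of endostatin, was the 1 higher gene (141 and 153 CPM against 23.8), and stood at 699 and 683 CPM in WT. COL6A3 in WT was at 4799 and 5766 CPM. These transcripts are long, with a median of 5798 bases, the class in which ratios ran low over all genes. With the ratio centred on genes of like length the list median was -1.45, with 13 genes lower and 2 higher.

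Other matrix genes followed. Of 28 kept genes 15 were lower, each of them also below I10 old, and none was higher (median -1.38). FN1 (fibronectin) stood at 1694.5 and 1682 CPM in ICM, 7883 in I79 old, 12743 in I10 old and 8752 in I79 young. TNC (tenascin-C) stood at 21.5 and 26.2 CPM in ICM, 308 in I79 old and 2178 in I79 young. FBLN2 (fibulin-2) was the lowest by ratio, at 2.22 and 2.41 CPM against 107. CCN2 (CTGF), a YAP target, was at 1858 and 1791 CPM in ICM and 1179 in I79 old, a ratio of 0.63. Contractile genes had 3 higher and 7 lower of 14 (median -0.96). TAGLN (transgelin) was at 147 and 136 CPM in ICM against 1206, while TPM2, a tropomyosin, was at 1521.5 and 1487 CPM against 117 in I79 old, 181.5 in I79 young, and 929 and 1013 in WT. The WT median of the contractile list against I79 old was -1.0.

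**Figure D3:**
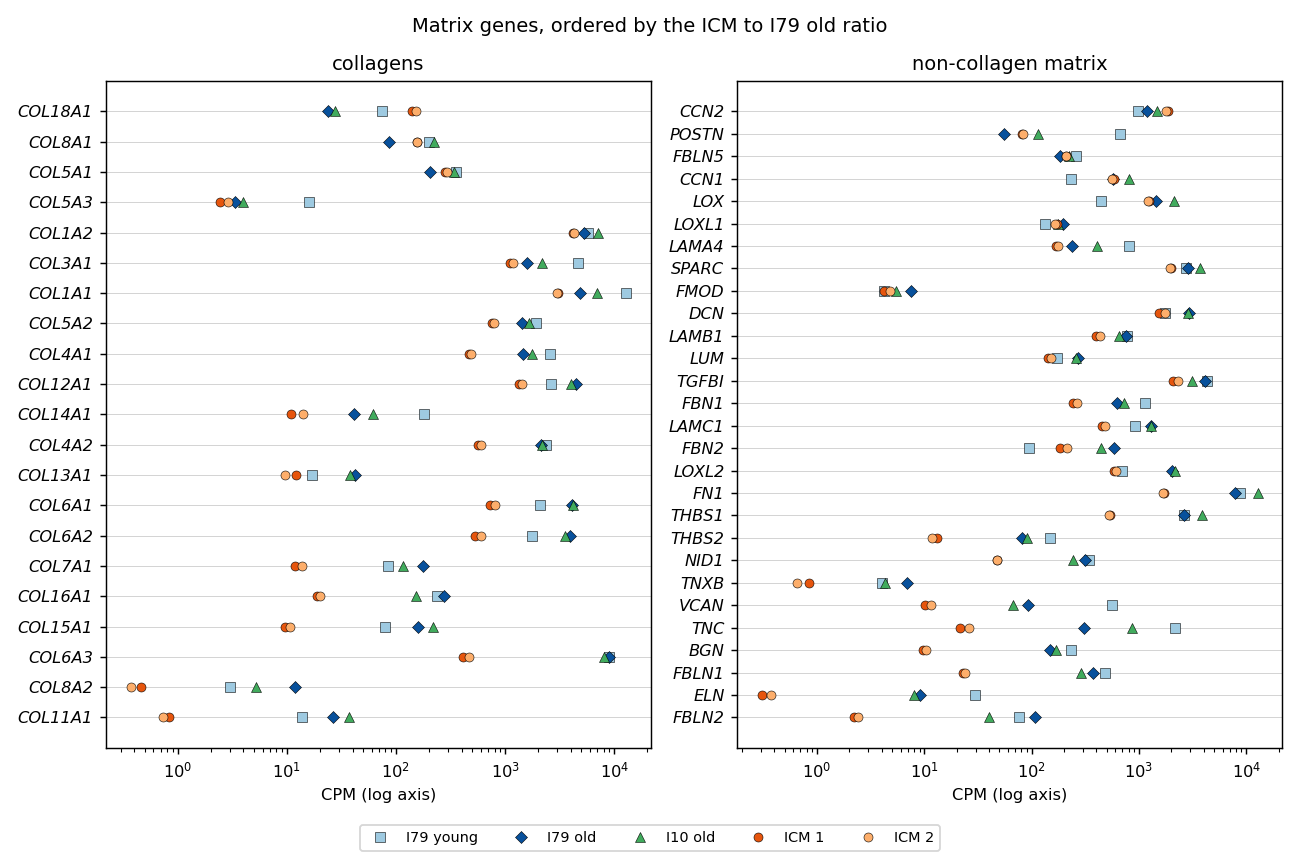
CPM (x axis, log scale) of each kept collagen gene (left) and other matrix gene (right) in I79 young, I79 old, I10 old and both ICM libraries (1 point per column), ordered by the ICM to I79 old ratio. In the lower part of each panel the ICM points lie left of all other columns, as for COL6A3 with 409 and 470 CPM against 8979 in I79 old.

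Most markers of the labelled cell type were present in both groups. Of 13 fibroblast markers 1 was higher and 5 lower (median -0.83). The lowest ratio was -3.65, for a gene with few ICM reads (10 and 12 in its coding region). THY1 stood at 586 and 592 CPM in ICM and 701 in I79 old (-1.38 without reads of untranslated regions), and PDGFRA was at 87.5 and 98.6 CPM against 392. Lung fibroblast transcription factors had 2 higher and 1 lower of 12, and FOXF1 was near level, at 318 and 326 CPM in ICM and 291 in I79 old. Markers of other cell types were mostly under the filter. Of the listed epithelial, endothelial, leukocyte, and muscle and neural markers, 3 of 11, 3 of 8, 1 of 9 and 2 of 9 were kept. The ICM libraries had no read of SFTPC, CDH5, CD3E or MYOD1. The summed level of the epithelial list was 60.2 and 52.3 CPM in ICM and 53.6 in I79 old, most of it KRT8 and KRT18. The endothelial sum was 52.7 and 60.2 against 221, nearly all of it TEK. The leukocyte sum was 59.8 and 67.1 against 158, nearly all of it the lysosomal protein CD68. The muscle and neural sum was 173.5 and 160 against 33.4, nearly all of it TUBB3 and DES.

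NRF2 targets gave the clearest group difference upwards. Of 20 genes 19 were higher in ICM than in I79 old and 18 were higher than in both old isolates, with none lower, where 21.2% of all genes were higher. The list median was 2.36 beside 0.11 over all genes. It was 2.39 without reads of untranslated regions and 2.12 with the ratio centred on genes of like length. The medians of the same list against I79 old were 0.79 in WT, 0.27 in HMGB2 KD, 0.34 in I10 old and 0.50 in I79 young. In WT 8 of the 20 genes were higher than in I79 old past the fold and 2 lower. In HMGB2 KD 4 were higher and 2 lower, in I79 young 3 and 1, and in I10 old 0 and 1. Every gene of the list had at least 161 counts in I79 old. HMOX1 (heme oxygenase-1; chromosome 22 from 35776354 to 35790207 of GRCh37) led, at 980 and 1047 CPM in ICM, 36.6 in I79 old, 13.1 in I10 old and 54.3 in I79 young, 27.6-fold higher than in I79 old (25.6 to 29.9). NQO1, a quinone reductase, stood at 1561 and 1577 CPM in ICM, 129 in I79 old, 192 in I10 old and 629 in I79 young. In WT it stood at 973 and 910 CPM. The I79 old value was below that of young cells, and the ICM values above both.

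The members covered each arm of the response. For glutathione synthesis, GCLM stood at 473 and 447 CPM in ICM against 40.2, GCLC at 195 and 189 against 89.4, and the cystine carrier SLC7A11 at 569 and 526 against 217, although SLC7A11 was level without reads of untranslated regions. For the thioredoxin system, TXNRD1 stood at 3310 and 3341 CPM against 633, and SRXN1 (sulfiredoxin) at 1226.5 and 1260 against 66.9. For NADPH, PGD, an enzyme of the pentose phosphate pathway, stood at 1255 and 1283 CPM against 130 in I79 old and 399 in I79 young, and at 631 and 562 in WT. TKT of the same pathway was the gene short of the fold, with a ratio of 0.65. For iron storage, the ferritin light chain FTL stood at 28493 and 30484 CPM in ICM and 7036 in I79 old, and the heavy chain FTH1 at 13246 and 14414 against 3493. In WT, FTL stood at 7912 and 6915 CPM, about level with I79 old, and FTH1 at 9066 and 7710, above I79 old. SQSTM1 (p62), the autophagy receptor that binds KEAP1, stood at 4240 and 4398.5 CPM against 865. It was near 0 in WT, at 0.737 and 0.254 CPM, so its level differs with the counting.

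Both ferritin chains were among the genes with the most reads in ICM. Of the 10 protein-coding genes with the most reads in ICM and the 10 in I79 old, which are ranks by read count and not per length, 5 were the same (FTL, GAPDH, IGFBP5, EEF1A1 and COL1A2). FTH1, SQSTM1, PKM, CDKN1A and TXNRD1 were in the ICM set alone, and COL6A3, FN1, VIM, COL1A1 and ACTB in the I79 old set alone. The ICM set took 8.73% and 9.28% of the reads, and the I79 old set 9.63% of the counts.

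**Figure D4:**
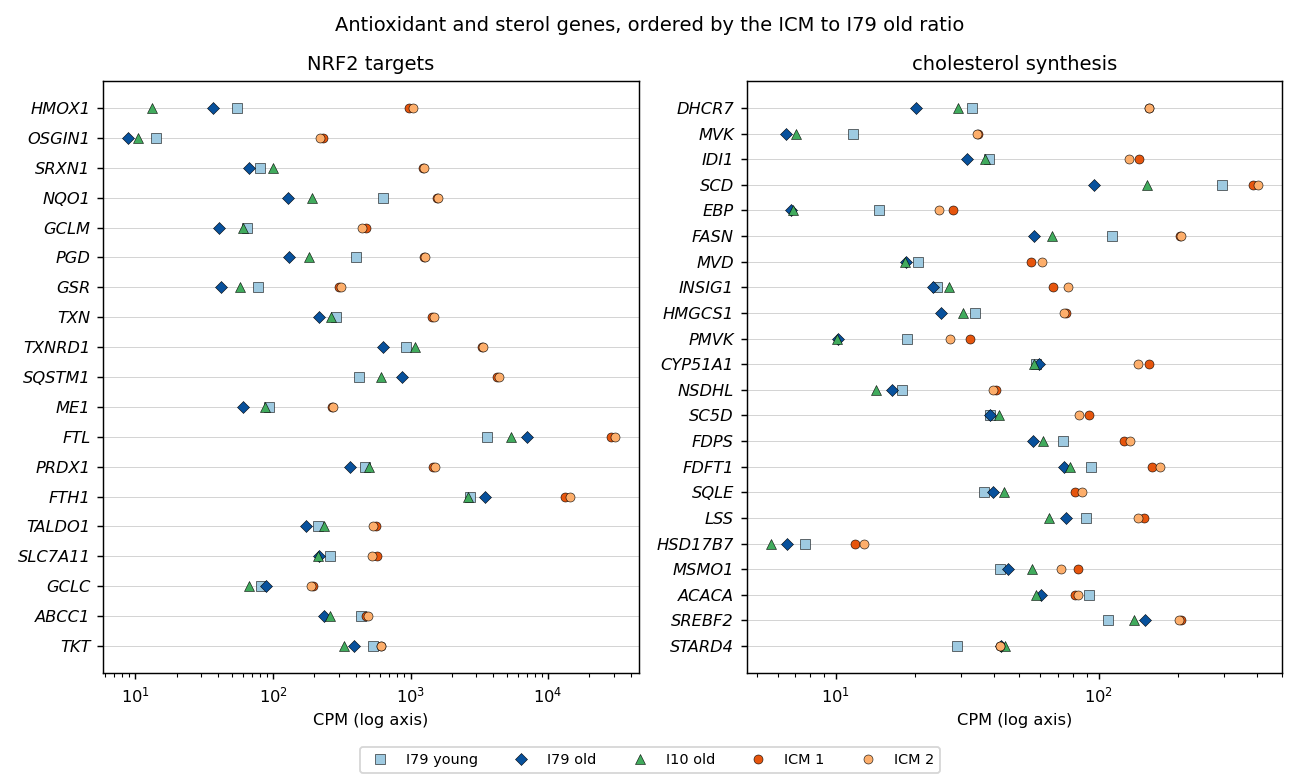
CPM (x axis, log scale) of NRF2 targets (left) and cholesterol synthesis genes (right), some members left out, in I79 young, I79 old, I10 old and both ICM libraries (1 point per column), ordered by the ICM to I79 old ratio. For most genes the ICM points lie right of the other 3 columns, as for HMOX1 with 980 and 1047 CPM against 36.6 in I79 old.

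The antioxidant response element, to which NRF2 binds with small MAF proteins, was searched by its core TGACNNNGC in the same promoter windows. Of the 20 genes 13 had an entry, and 4 (30.8%), which were GCLM, PGD, TXNRD1 and ME1, held it on either strand, against 13.6% of all promoters. No match says only that these letters are not in this window. The 2 with the highest ratios are shown on the gene's strand, with the core in capitals as it reads there, in reverse complement (GCNNNGTCA). The GCLM window is chr1:93909431-93909490 on the minus strand and the PGD window chr1:10398837-10398896 on the plus strand, both of GRCh38.p14.
GCLM: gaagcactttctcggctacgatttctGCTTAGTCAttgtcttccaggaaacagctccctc
PGD: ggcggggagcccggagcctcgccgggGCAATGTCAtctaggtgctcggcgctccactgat

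Among AHR and CYP1 targets, 3 of 7 kept genes were higher and 1 lower (median 0.18). CYP1B1, a cytochrome P450 of aromatic and steroid compounds (chromosome 2 from 38294116 to 38337044 of GRCh37), stood at 296 and 274 CPM in ICM, 188 in I79 young and 180.5 in I10 young, but 2.77 in I79 old and 1.68 in I10 old. It was near silent in both senescent columns and expressed in ICM and in proliferating cells, 103-fold above I79 old (78.5 to 139), and at 39.9 and 34.6 CPM in WT. ALDH1A3, a retinal dehydrogenase, was lower in ICM, at 2.22 and 3.61 CPM against 45.9 in I79 old, 5.77 in I10 old and 22.3 in I79 young.

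Cholesterol synthesis genes were higher as a group. Of 25 kept genes 19 were higher in ICM than in I79 old, 18 of them than in both old isolates, and none was lower, with a median of 1.32. The medians against I79 old were 0.25 in WT, 0.12 in I10 old and 0.34 in I79 young, with none of 25 genes higher and 3 lower in WT. IDI1, the isomerase that makes the prenyl building block of sterols, stood at 143 and 131 CPM in ICM, 31.6 in I79 old, 37.1 in I10 old and 38.4 in I79 young, 4.35-fold higher than in I79 old (3.98 to 4.76). HMGCS1, a synthase at the start of the pathway, stood at 75.1 and 73.9 CPM in ICM, 25.1 in I79 old and 33.8 in I79 young. INSIG1, which holds the sterol sensor in the endoplasmic reticulum, stood at 67.3 and 76.7 CPM against 23.5, and at a ratio of 1.60, or 0.97 and short of the fold without reads of untranslated regions. SREBF2, which encodes SREBP2 itself, was at 206 and 202 CPM against 150.5 (ratio 0.44), and STARD4, a sterol carrier, was level at 42.0 and 42.1 against 42.4 (-1.22 without reads of untranslated regions). The sterol regulatory element core TCACNCCAC was found in the promoter window of 1 of 19 genes with an entry (5.26%), SREBF2, against 1.15% of all promoters. That match is shown with the core in capitals, at chr22:41832946-41833005 of GRCh38.p14 on the plus strand.
SREBF2: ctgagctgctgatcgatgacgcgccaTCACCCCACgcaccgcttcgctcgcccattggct

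Of 22 stress response genes 5 were higher and 6 lower, with a median of -0.21. Among the higher ones was HYOU1, a chaperone of the endoplasmic reticulum, at 220 and 216.5 CPM in ICM against 67.3 in I79 old and 184 in I79 young. Among the lower ones was ASNS (asparagine synthetase), at 9.02 and 11.9 CPM in ICM against 146 in I79 old and 145 in I79 young, and 0.553 and 1.24 in WT. ATF3, a stress-induced transcription factor, was higher, at 152 and 171 CPM in ICM, 32.9 in I79 old and 9.21 in I79 young.

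Interferon response genes had 3 higher and 4 lower of 22, beside 21.2% and 14.9% of all genes, and a median of 0.12. ISG15 stood at 46.6 and 43.3 CPM in ICM against at most 0.598 in the 4 old and young columns, and at 25.2 and 21.2 in WT. Lysosome genes were largely level, with 4 higher and 2 lower of 30 and a median of 0.09. GLB1, which encodes the β-galactosidase stained as a mark of senescence, stood at 114 and 121 CPM in ICM, 119 in I79 old, 99.4 in I10 old and 76.3 in I79 young. Its ICM to I79 old fold was 0.982 (0.928 to 1.04). NPC1, a cholesterol exporter of lysosomes, was 2.44-fold higher in ICM (2.28 to 2.61).

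Respiratory chain subunits had 7 higher and none lower of 36, beside 21.2% and 14.9% of all genes. Their median was 0.43, or -0.27 with the ratio centred on genes of like length. Ribosomal protein genes had 4 higher and 12 lower of 75 (median -0.65), or 62 lower (median -1.48) with the ratio centred on genes of like length. RPS10 and RPL26 led the higher ones, at 237 and 226 CPM and at 394 and 392 CPM in ICM, with at most 13.2 CPM in the 4 old and young columns, and in WT at 0.246 and 0.169 CPM for RPS10 and 648 and 602 for RPL26. RPL13A led the lower ones, at 184 and 191 CPM in ICM against 1763 in I79 old, 1840 in I79 young and 2668 and 2224 in WT. Ribosomal protein genes have many near-identical processed copies, so their split of reads is uncertain. Replication-dependent histone genes make mRNA that mostly lacks a poly(A) tail. Only 9 of 16 passed the filter, some through ICM alone, so their count carries no weight. H1-2, a linker histone, stood at 291 and 300 CPM in ICM, 9.24 in I79 old, 19.4 in I10 old, 8.42 in I79 young, and 10.5 and 7.84 in WT.

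**Figure D5:**
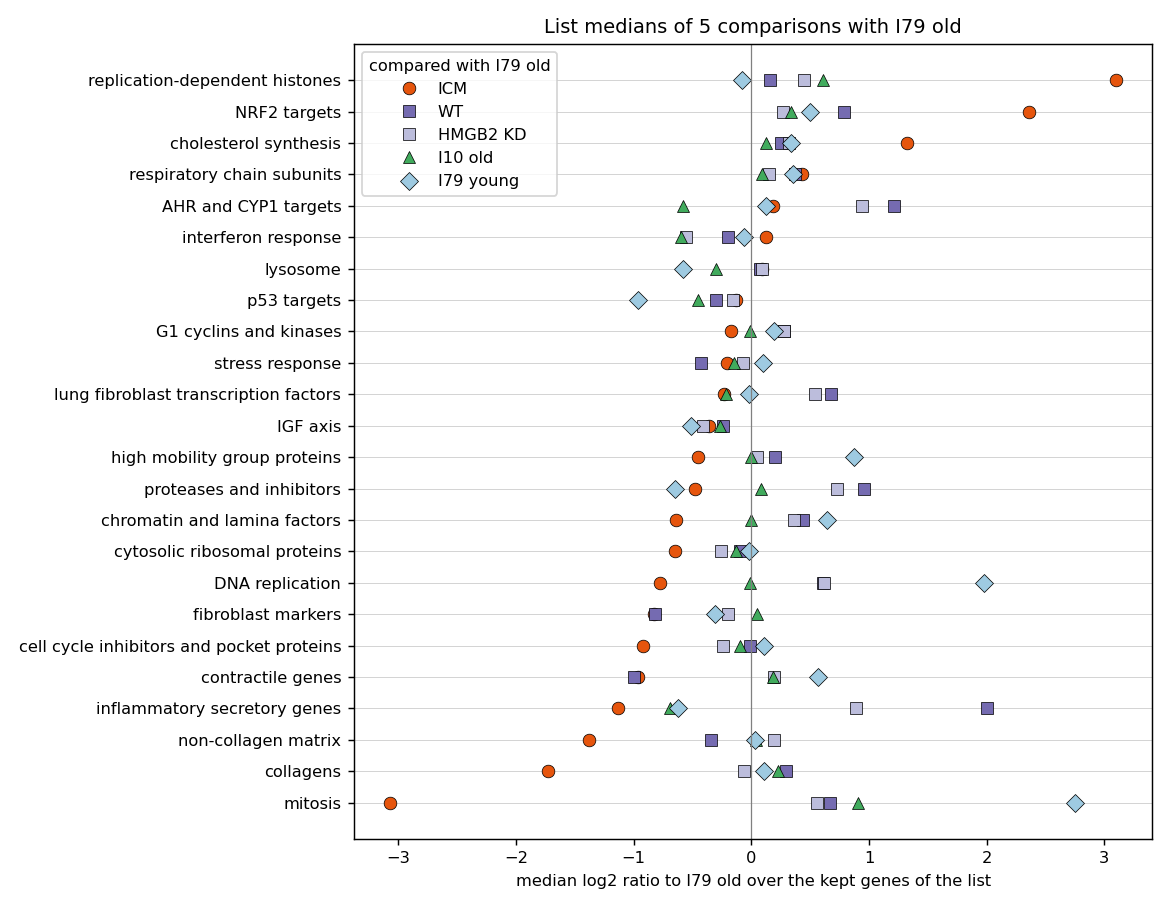
Median log2 ratio to I79 old (x axis) over the kept genes of each list (y axis) for ICM, WT, HMGB2 KD, I10 old and I79 young (marker shapes and colours). ICM lies furthest right for NRF2 targets (2.36) and cholesterol synthesis (1.32) and furthest left for mitosis (-3.07) and collagens (-1.73).

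Genes in or outside the lists were also taken by the size of the ratio, among protein-coding genes past the fold against both old isolates, also without reads of untranslated regions, and with at least 10 counts in each kind of table. Upwards these were MMP3, AKR1B10, EFNB2, P2RX5-TAX1BP3, SMCO4, SEMA3E, ERICH5, COX6B1, H2AC20, AKR1C3, AKR1C2 and BMP6, with ratios from 10.22 to 7.30. The aldo-keto reductases, which reduce carbonyls and steroids and are known NRF2 targets in human cells, formed a set. AKR1C2 stood at 1393 and 1436 CPM in ICM, 7.77 in I79 old, 11.4 in I10 old, 14.0 in I79 young, and 11.9 and 9.19 in WT, 182-fold higher than in I79 old (154 to 216). AKR1C3 stood at 197 and 206.5 CPM against 0.924, and AKR1B10 at 120 and 119 against 0.109, which was 2 counts. The AKR1C genes are near copies of each other, so the split of reads among them is uncertain. BMP6, a growth factor induced by iron, stood at 83.7 and 80.9 CPM in ICM against 0.380 in I79 old, 3.02 in I79 young, and 14.3 and 10.1 in WT.

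SMCO4, at 268 and 270 CPM in ICM against 1.09 in I79 old, had a ratio of 7.78 with all reads and 1.88 without reads of untranslated regions. COX6B1 stood at 136 and 150 CPM in ICM and at 128.5 and 109 in WT, but at most at 0.544 CPM in the 4 old and young columns. P2RX5-TAX1BP3 is a readthrough locus that overlaps its parent genes, and none of its ICM reads was assigned to a coding or untranslated region. In all, 596 of the 2864 higher genes had at most 10 counts in each of the 4 old and young columns.

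Downwards the genes were KISS1, IL32, MME, CDCP1, NBPF14, IGF2, FBLN2, CHL1, RGPD6, CLDN1, HR and BAALC, with ratios from -6.47 to -5.18. Several of these were high in old cells. CLDN1 (claudin-1, a tight junction protein) was at 253 CPM in I79 old, 85.1 in I10 old and 2.73 in I79 young, and at 7.64 and 5.65 in ICM. KISS1, the kisspeptin precursor, was at 70.2 CPM in I79 old, 13.8 in I10 old and 0.648 in I79 young, and at 0.764 and 0.556 in ICM. IL32, a cytokine, was at 120.5 CPM in I79 old, 30.9 in I10 old and 5.11 in I79 young, and at 1.68 and 0.926 in ICM. MME (neprilysin, the CD10 peptidase) was at 278 CPM in I79 old, 164 in I10 old and 37.5 in I79 young, and at 3.44 and 4.91 in ICM, 67.7-fold lower than in I79 old (55.5 to 83.6). The rule that named these genes required the ICM libraries to lie below both old columns. NBPF14 and RGPD6 belong to families of near-identical copies, stood at 56.0 and 39.3 CPM in I79 young and at no more than 6.11 in WT, and are uncertain.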

How the data were processed

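Poly(A)-selected RNA-seq of IMR90 was compared between I79 ICM and I79 old. For the old and young groups the authors deposited estimated counts and TPM per transcript in 1 table per group, whether pooled or 1 replicate is not stated. Estimated counts were summed per gene through GENCODE v44 lifted to GRCh37 (97.2% to 97.4% of counts matched) and rounded. For ICM the authors deposited estimated counts per gene and transcript region, which were summed over regions. The methods of the study describe short mRNA reads matched to ribosome profiling for such libraries. Their aligner and annotation are not given in the sources used here. For mRNA of that kind the methods describe lysis in a polysome buffer with cycloheximide and library preparation by an outside company. For other RNA-seq they describe TRIzol extraction and paired-end reads. Preparation may thus differ between ICM and the other groups, as counting does. The WT and knockdown tables hold whole-number counts, deposited unnormalised, 1 value a gene. The submitters' processing notes name STAR 2.6.0c, featureCounts, DESeq2 and GRCh37, with no table assigned to them.

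Of the ICM symbols, 854 were updated to GENCODE symbols. Shared genes held 98.4% of ICM reads and 95.3% of I79 old gene counts. Log2 CPM used library totals over shared genes and a prior count of 2, with pandas 2.3.3 and R 4.3.3 with edgeR 4.0.16 for the TMM alternative. No p-value was computed, since I79 old is 1 column. The steps were tested on simulated data. The members, the 28 gene lists and the rule for named genes were chosen with earlier results of these data known. The rule named list members, the 12 largest ratios each way under the conditions given with them, and the 10 genes with most reads in each group. The old and young tables also hold transcript length, used for a length alternative. TPM served only for an alternative count. Intervals cover counting error only, since no molecular identifiers are stated. In the WT and HMGB2 KD tables, summary lines that name no gene (16.9% to 18.0% of counts) were left out of the totals.
Alternatives changed the prior count, scaling, filter, fold, regions counted, the source of the old values, gene set, senescent isolate and ICM library, and 2 more (ratios centred by transcript length, and genes measurable in all 3 kinds of table) were chosen after seeing the data. Promoter windows and motifs came from RefSeq GRCh38.p14. Some members of the lists are counted with their list but not reported here by name, in text or figures.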

Additional observations from a re-analysis of the deposited data

Results flagged for a closer look

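For 28 genes named above, both ICM libraries stood past the fold on one side of I79 young while I79 old stood past it on the other side. The same count was not taken over all genes. Many of the 28 were named for a large ICM to I79 old ratio, which favours opposite sides of I79 young, so their number carries no weight. All of the values below use the same I79 young column, and the difference between the sides was not tested. The counting and library preparation of the ICM tables cannot be told apart from treatment.

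Genes above I79 young in ICM and below it in I79 old included antioxidant and NADPH genes, with log2 ICM to I79 old ratios of 3.60 for NQO1 and 3.29 for PGD, and the aldo-keto reductases AKR1B10 (8.90) and AKR1C3 (7.56). The growth factor, guidance and receptor genes were BMP6 (7.30), EFNB2 (8.19), SEMA3E (7.76) and IGF1R (5.84). The others were MMP3 (10.22), DES (3.96), ERICH5 (7.75), SMCO4 (7.78), the histone H2AC20 (7.57), and the ribosomal genes RPL26 (6.33) and RPS10 (6.43). For several of these the fall from I79 young to I79 old rests on few counts. I79 young and I79 old held 10 and 0 counts of MMP3, and 19 and 0 of ERICH5. They held 14 and 0 counts of H2AC20, and 7 and 0 of SEMA3E. RPL26 and RPS10 were low in all the old and young columns, as given above.

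Genes below I79 young in ICM and above it in I79 old included HMGA2 (-4.27), with log2 differences from I79 young of -1.73 in ICM and 2.54 in I79 old. Secretory and NF-κB genes of this kind were C3 (-8.01), ICAM1 (-3.56), IL32 (-6.43) and TNFAIP3 (-4.73). The matrix and growth factor genes were COL6A2 (-2.80), TIMP3 (-4.49) and IGF2 (-5.58). The others were the surface peptidase MME (-6.03), the adhesion genes CDCP1 (-5.99) and CHL1 (-5.27), the retinal dehydrogenase ALDH1A3 (-3.95) and BAALC (-5.18).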

How the results depend on the processing

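The counts of genes past the fold, 2864 higher and 2022 lower, were within 1.5 times of these under most of the 17 alternatives. They were 1656 and 1217 with a mean CPM of at least 10, 1396 and 684 with both ICM libraries past 2, and 3200 genes were lower with both past 0.6. With 1 ICM library left out the counts ran from 3015 to 3057 higher and from 2207 to 2246 lower. The median of p53 targets ran from -0.50 to 0.57. TMM scaling gave 2414 higher and 2471 lower, which turned the order of the counts, and moved the median of all genes from 0.11 to -0.06. The mitosis median ran from -3.99 to -2.45, that of collagens from -1.90 to -1.02, that of NRF2 targets from 2.12 to 2.63 and that of cholesterol synthesis from 1.15 to 1.67.

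Of 560 genes named or listed, 275 were past the fold, and 6 of these 275 turned direction. Genes short of the fold were not counted as turned, though some changed sign, such as CDKN1A without reads of untranslated regions. Without reads of untranslated regions the ratio of H2BC21 was -0.09 and of SLC7A11 0.0. With TPM times length as the I79 old value, COL4A2 was at 0.25 and MUC1 at -0.41. With I10 old as the senescent column, IFITM1 was at 0.12 and RELB at 0.01. The median of leukocyte markers was 0.29 with no filter on low values. Medians of other lists changed sign as well. Among them were G1 cyclins and kinases (-1.03 to 0.58), lysosome genes (-0.22 to 0.40) and respiratory chain subunits (-0.27 to 0.59). The cause of these was not tested. No paired analysis was possible because the I79 old table holds 1 column with no replicate number. No untreated library was counted as the ICM libraries were, or is known to have been prepared as they were. I79 old is 1 column, and genes with under 10 reads carry wide counting error.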
